A study of Mus musculus with 8 samples.

Results

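The subunits of the mitochondrial respiratory chain and of ATP synthase that are encoded in the nucleus were followed as transcripts in activated mouse CD8+ T cells. They were the genes of the deposited regularized log2 table whose symbols begin with Ndufa, Ndufb, Ndufc, Ndufs, Ndufv, Uqcr, Cox4 to Cox8 or Atp5, together with Sdha, Sdhb, Sdhc, Sdhd and Cyc1. The 8 complex I assembly factors with Ndufaf symbols and 5 pseudogene symbols were left out. This gave 84 genes of the 16442 in that table: 39 of complex I, 4 of complex II, 9 of complex III, 15 of complex IV and 17 of ATP synthase. Ndufa4 was placed in complex IV, where its protein is known to sit.

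The cells were primary CD8+ T cells of C57BL/6 mice, taken from lymph node and spleen, stimulated with antibodies to CD3 and CD28 and cultured for 48 hours with a compound. The groups were EnPGC-1, SGC-CBP30, Ctrl PIP and the vehicle DMSO, with 2 RNA-seq libraries each. SGC-CBP30 blocks the bromodomains of CBP and p300, a pair of histone acetyltransferases. The study concerns an increase of mitochondria in T cells, with EnPGC-1 as its compound and Ctrl PIP as a control by name. The labels state no dose, so the compounds are set side by side and not matched by dose. Nothing in the labels says whether the replicates of a group were separate mice or cultures, and p-values then measure the spread between these libraries only, which may be technical.

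Complexes I to IV pass electrons from NADH and succinate to oxygen. Complexes I, III and IV also pump protons across the inner mitochondrial membrane, and ATP synthase uses the proton gradient to make ATP. Most subunits of these complexes are made from nuclear genes and imported, and a few from mitochondrial DNA. Activated T cells enlarge their mitochondria and their respiratory capacity as they begin to divide. The coactivator PGC-1alpha, encoded by Ppargc1a, acts with the transcription factors NRF1, GABP, ERR and YY1, which are known to bind promoters of many of these genes.

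The promoters of the 3 genes for subunit c of ATP synthase are shown because these genes make the same mature protein yet differed in how their transcripts varied among the groups, and those of Sdha and Sdhd because each holds several matches. Each line gives the 120 bases before the RefSeq start site, read 5′ to 3′ on the gene's own strand, from GRCm38.p6 (all 5 genes lie on the minus strand). Capitals mark matches, on either strand, to the motifs of NRF1 (GCGCA and GCGC with a T between them, and a relaxed form with any base there, which includes it), ERR (TCAAGGTCA), GABP and other ETS factors (CCGGAAG) or YY1 (AAGATGGC).
Atp5g1, chr11:96075632-96075751: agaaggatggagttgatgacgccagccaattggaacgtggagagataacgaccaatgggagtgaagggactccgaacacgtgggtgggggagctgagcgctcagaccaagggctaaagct
Atp5g2, chr15:102671048-102671167: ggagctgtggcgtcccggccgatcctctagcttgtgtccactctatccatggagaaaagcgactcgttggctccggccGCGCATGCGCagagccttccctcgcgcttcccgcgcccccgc
Atp5g3, chr2:73911327-73911446: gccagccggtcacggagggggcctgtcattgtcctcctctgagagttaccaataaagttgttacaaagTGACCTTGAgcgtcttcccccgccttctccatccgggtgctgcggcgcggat
Sdha, chr13:74350241-74350360: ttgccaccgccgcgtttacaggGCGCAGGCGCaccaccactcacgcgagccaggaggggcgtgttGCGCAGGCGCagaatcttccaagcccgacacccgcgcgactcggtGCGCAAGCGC
Sdhd, chr9:50603850-50603969: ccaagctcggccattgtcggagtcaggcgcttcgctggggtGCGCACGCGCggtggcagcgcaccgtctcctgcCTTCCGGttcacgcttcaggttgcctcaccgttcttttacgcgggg
The Atp5g2 window holds the full NRF1 motif, the Atp5g3 window an ERR match, and the Atp5g1 window none of the letters searched. The Sdha window holds 3 relaxed NRF1 matches, and the Sdhd window a relaxed NRF1 match and an ETS match.

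RefSeq promoters, which run from 250 bases before to 50 after a start site, were at hand for 69 of the 84 genes and for 27025 genes in all. The full NRF1 motif lay in 5 of the 69 promoters (7.25%), against 1.07% of all promoters. The relaxed NRF1 motif lay in 17 (24.6%), against 5.19% of all. The ETS motif lay in 17 (24.6%), against 9.93%, the YY1 motif in 10 (14.5%), against 3.19%, and the ERR motif in 2 (2.90%), against 0.466%. At least 1 of these motifs lay in 38 of the 69 promoters. In these promoters Atp5g3 also held a relaxed NRF1 match, and Sdhd an ERR match, which the windows above do not show. The Atp5g3 window lies inside the annotated gene span (up to 73912464), and the Atp5g1 window overlaps its own span (up to 96075694). The start sites used for these windows thus lie inside the spans. These matches describe letters in the sequence and are not evidence of binding. The background of all promoters was not matched for expression or GC content, so the higher shares are not read as particular to these genes. The 17 genes with the relaxed NRF1 motif had a median log2 fold change of -0.46 in SGC-CBP30 against Ctrl PIP, and the 52 without it -0.48.

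Total counts were 38890043 to 55491261 per library, and the 84 genes took 0.707% to 1.43% of them. The cells carried their labelled markers: Cd3d, Cd3e, Cd8a and Cd8b1 summed to between 2314 and 3434 CPM (counts scaled to the TMM-adjusted library total), and Cd4 to between 4.54 and 14.1 CPM. Markers of B cells (Pax5, Cd79a and Ms4a1) were low, all 3 above 0 in every library, and uneven: they summed to 20.9 and 10.9 CPM in EnPGC-1 libraries, 4.05 and 1.21 in SGC-CBP30 libraries, 7.16 and 1.70 in Ctrl PIP libraries, and 18.95 and 6.93 in DMSO libraries. The 4 myeloid markers (Lyz2, Itgam, Csf1r and Cd68) summed to between 7.71 and 16.5 CPM, with Csf1r at 0 in 3 libraries. The 3 erythroid and platelet markers (Hba-a1, Hbb-bs and Pf4) summed to 31.1 and 10.9 CPM with EnPGC-1, 8.21 and 1.90 with SGC-CBP30, 6.14 and 4.24 with Ctrl PIP, and 14.1 and 6.95 with DMSO, with Pf4 at 0 in DMSO replicate 2. The NK cell markers Ncr1 and Klrb1c summed to between 0 and 2.45 CPM. Their part in the results below was not tested. In bulk RNA, fewer cells of a type and less RNA per cell cannot be told apart.

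Per length, as TPM (counts scaled to transcript length and to the library total) over all 8 libraries, the most abundant transcripts were Atp5b, the catalytic beta subunit of ATP synthase, with a mean of 940 TPM, and Atp5g2, a subunit c gene, with 834 TPM. Cox4i1, which is needed early in the assembly of complex IV, followed with 675 TPM, and Atp5a1, the alpha subunit of ATP synthase, with 648 TPM. In complex III the small hinge subunit Uqcrh was highest at 608 TPM and Cyc1, the cytochrome c1 that hands electrons to cytochrome c, lowest at 134 TPM. In complex II, Sdhb (the iron-sulfur subunit) had 193 TPM and Sdhc (a membrane anchor) 45.9 TPM. In complex I, Ndufa6, an accessory subunit that binds the acyl carrier protein, had 227 TPM, and Ndufb4 41.0 TPM. Ndufb4c, listed at 8.86 TPM, and Ndufb4b are near-identical copies of Ndufb4, and how the reads were shared out among the 3 is uncertain.

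The tissue-restricted partners of ubiquitous subunits were rare. Cox6a2, the heart and muscle partner of Cox6a1, had 0 and 0 counts with EnPGC-1, 11 and 0 with SGC-CBP30, 13 and 0 with Ctrl PIP, and 2 and 26 with DMSO. Cox7a1, the muscle partner of Cox7a2, had 0 and 40 counts with EnPGC-1, 20 and 23 with SGC-CBP30, 17 and 0 with Ctrl PIP, and 10 and 33 with DMSO. At such counts the fitted fold changes of both genes depend on the prior count, and no size is read from them. Cox6b2, known from testis, made up 1.39% ± 0.425 of the summed TPM of Cox6b1 and Cox6b2 with EnPGC-1, 1.72% ± 0.175 with SGC-CBP30, 0.749% ± 0.161 with Ctrl PIP and 1.24% ± 0.420 with DMSO (SD, n = 2 each). Cox4i2, Cox8b and Ndufa4l2, the alternative forms of Cox4i1, Cox8a and Ndufa4, had 0 counts in all 8 libraries.

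Most of the 84 transcripts varied together from library to library, with large steps between the libraries of 1 group. Their summed level was 6678 and 11064 CPM with EnPGC-1, 8302 and 8725 CPM with SGC-CBP30, 11821 and 10605 CPM with Ctrl PIP, and 7593 and 15548 CPM with DMSO. DMSO replicate 2 was the highest library for 80 of the 84 genes, and EnPGC-1 replicate 1 was the lowest for 64. The SGC-CBP30 libraries lay close to each other, as did those of Ctrl PIP, while the libraries of EnPGC-1 and of DMSO were far apart.

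**Figure D1:**
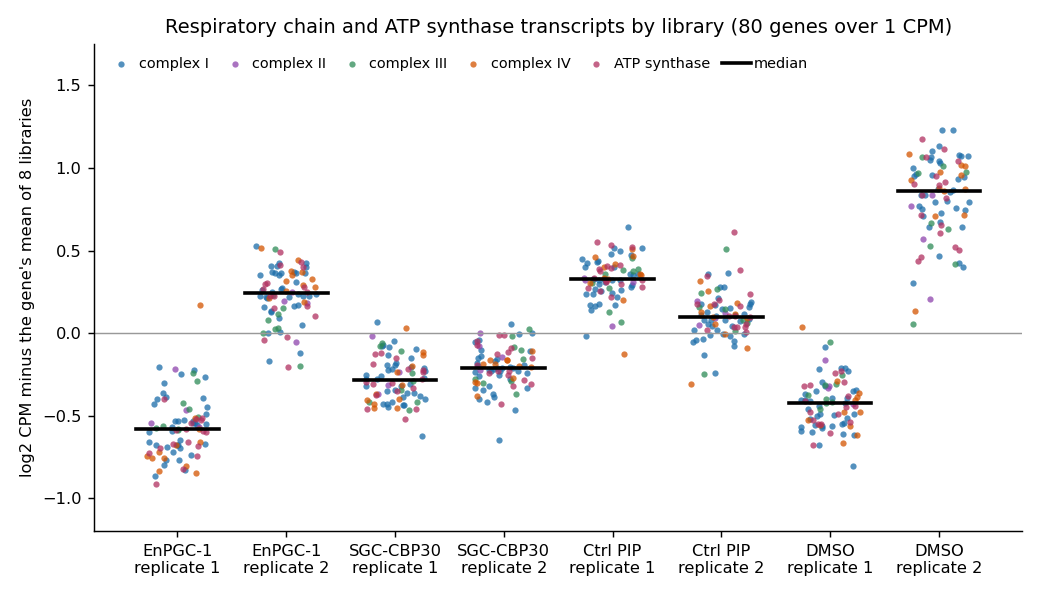
Log2 CPM of each gene minus its own mean over 8 libraries (vertical axis) in each library (horizontal axis), for the 80 genes above 1 CPM in every library; points are genes coloured by complex and bars are medians. The genes of all complexes sit high in DMSO replicate 2 and low in EnPGC-1 replicate 1, and both SGC-CBP30 libraries sit below both Ctrl PIP libraries.

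Between the 2 libraries of a group, the median log2 difference of the 84 genes (replicate 2 minus replicate 1) was 0.89 with EnPGC-1, 0.09 with SGC-CBP30, -0.22 with Ctrl PIP and 1.32 with DMSO. All 84 genes were higher in DMSO replicate 2 than in replicate 1, and 83 were higher in EnPGC-1 replicate 2 than in replicate 1. Over all 16750 genes tested the same medians were -0.0049 with EnPGC-1, 0 with SGC-CBP30, 0 with Ctrl PIP and -0.02 with DMSO. Scaling by TMM keeps such medians of all genes near 0. Without regard to sign, the median difference over all genes was 0.56 with EnPGC-1, 0.20 with SGC-CBP30, 0.20 with Ctrl PIP and 0.73 with DMSO. Over the 84 genes it was 0.89, 0.14, 0.22 and 1.32 in the same order. By complex the DMSO difference was 1.34 in complex I, 1.03 in complex II, 0.94 in complex III, 1.40 in complex IV and 1.34 in ATP synthase.

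The steps between replicates went with transcript length. The 82 genes with a known length had a median of 697.5 bases, and 68.3% were under 1000 bases, against a median of 2313 bases and 19.0% among all genes tested. Over the 78 genes with a length and a mean log2 CPM above 3, Spearman's rho of length with the replicate difference was -0.52 for EnPGC-1, 0.10 for SGC-CBP30, 0.51 for Ctrl PIP and -0.61 for DMSO. These are descriptions over genes that share the same libraries, and genes are not independent replicates. The 56 genes under 1000 bases differed by a median log2 of 1.39 between the DMSO replicates, and the 26 longer ones by 0.93.

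The same gradient ran through the whole transcriptome. Over 9295 genes, the log2 deviation of a library from the mean of all 8 correlated with transcript length with a rho of 0.46 and -0.52 in the EnPGC-1 libraries, 0.52 and 0.47 in the SGC-CBP30 libraries, -0.49 and -0.16 in the Ctrl PIP libraries, and 0.54 and -0.59 in the DMSO libraries. With per-library offsets for transcript length and GC content, the median replicate differences of the 84 genes were 0.26 with EnPGC-1, 0.08 with SGC-CBP30, -0.08 with Ctrl PIP and 0.53 with DMSO. The median of each comparison below is given with and without these offsets. Over the same 78 genes, rho of length with the SD of log2 CPM over 8 libraries was -0.60, with exceptions. Uqcrc2, a core protein of complex III, ranged from 138 to 179 CPM and Sdha, the flavoprotein of complex II, from 258 to 346 CPM over the 8 libraries. Sdhc, with the longest transcript at 3171 bases, ranged from 59.3 to 122 CPM, and Ndufab1, at 1416 bases, from 30.9 to 107 CPM.

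**Figure D2:**
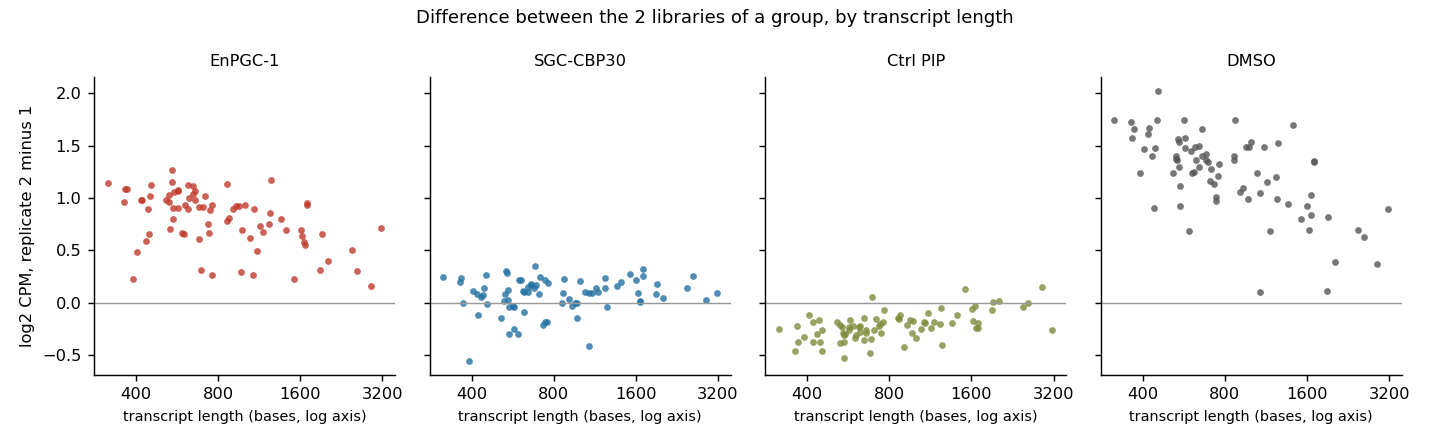
Log2 CPM of replicate 2 minus replicate 1 (vertical axis) against transcript length in bases (horizontal log axis) for the genes above 1 CPM in every library with a known length, in 1 panel per group. Shorter transcripts had larger replicate differences with EnPGC-1 and with DMSO, while the SGC-CBP30 and Ctrl PIP replicates lie near 0.

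The first question was whether the compounds moved these transcripts relative to the vehicle. In EnPGC-1 against DMSO, 83 of the 84 transcripts had a lower mean, with a median log2 fold change of -0.43 against 0.00 over all genes tested. No gene passed edgeR's quasi-likelihood test at an adjusted p of 0.05: 0 of the 84, against 0% of the 16750 genes tested, with 0 of the 84 at an unadjusted p under 0.05. DESeq2 called 0 of the 84 and 18 genes in all. Medians by complex were -0.40 (complex I), -0.35 (complex II), -0.43 (complex III), -0.45 (complex IV) and -0.47 (ATP synthase). Both EnPGC-1 libraries lay below both DMSO libraries for 1 of the 84 genes, and 9.24% of all genes did so. With the offsets, the median of the 84 was -0.23. Without DMSO replicate 2 the median was 0.31. Without replicate 2 of both groups it was -0.14 with 70 of the 84 below 0, and without replicate 1 of both -0.59 with 81 below 0.

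Ndufa12, an accessory subunit of complex I, had the smallest p of that complex in EnPGC-1 against DMSO. It measured 24.5 and 34.6 CPM in EnPGC-1 libraries and 29.5 and 82.5 CPM in DMSO libraries, a log2 fold change of -0.92 (SE 0.46, adjusted p = 1.00). The EnPGC-1 libraries overlapped the lower DMSO library. Sdhb measured 84.5 and 140.4 CPM with EnPGC-1 and 98.5 and 219 CPM with DMSO (log2 fold change -0.50, SE 0.41). Uqcr10, a small subunit of complex III, measured 40.7 and 61.3 CPM with EnPGC-1 and 44.8 and 118 CPM with DMSO (log2 fold change -0.68, SE 0.45). In both genes DMSO replicate 2 stood above the other 3 libraries, which overlapped. Cox7a2l was the gene that ran the other way: it measured 406 and 489 CPM with EnPGC-1, 367 and 276 CPM with SGC-CBP30, 330 and 291 CPM with Ctrl PIP, and 370 and 396 CPM with DMSO. Its protein, also called SCAF1, joins complexes III and IV into supercomplexes, and C57BL/6 mice are known to carry a shorter allele of it. Both EnPGC-1 libraries lay above all 6 others, yet the log2 difference was within the error of the fit: 0.23 from DMSO (95% interval -0.32 to 0.77), 0.53 from Ctrl PIP (-0.02 to 1.08) and 0.47 from SGC-CBP30 (-0.07 to 1.02), with adjusted p of 1.00, 0.812 and 1.00 by edgeR. With the offsets these differences were 0.37 from DMSO, 0.69 from Ctrl PIP and 0.39 from SGC-CBP30.

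In SGC-CBP30 against DMSO, 83 of the 84 had a lower mean and the median log2 fold change was -0.60, against -0.03 over all genes. Again 0 of the 84 and 0% of all genes passed edgeR's adjusted test, and DESeq2 called 0 of the 84 and 62 genes in all. Both SGC-CBP30 libraries lay below both DMSO libraries for 4 of the 84 genes, and 14.5% of all genes did so. Among them was Ndufb4, with the smallest p of complex I here. It measured 18.5 and 16.7 CPM with SGC-CBP30 and 19.0 and 37.8 CPM with DMSO (log2 fold change -0.69, SE 0.34, adjusted p = 0.943 by edgeR). Cox5a, a subunit of complex IV, measured 78.6 and 87.3 CPM in SGC-CBP30 libraries and 77.3 and 218 CPM in DMSO libraries (log2 fold change -0.83, SE 0.54, adjusted p = 0.943). The lower DMSO library thus lay below both SGC-CBP30 libraries. The same held for Uqcrq, a small subunit of complex III, with 48.3 and 52.3 CPM in SGC-CBP30 libraries and 46.9 and 130.1 CPM in DMSO libraries (log2 fold change -0.82, SE 0.45). Atp5md, the DAPIT subunit of ATP synthase, measured 33.4 and 38.3 CPM with SGC-CBP30 and 32.6 and 108 CPM with DMSO (log2 fold change -0.97, SE 0.58). With the offsets the median was -0.23, and without DMSO replicate 2 it was 0.19.

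In Ctrl PIP against DMSO, the median was -0.12, against -0.05 over all genes, with 72 of the 84 below 0. With the offsets it was -0.031 with 49 below 0, and by limma on the rlog values 0.0047 with 39 below 0, so its sign depends on the setting. Among these, 0 of the 84 and 0% of all genes passed the adjusted test, and 2 genes were called by DESeq2, neither among the 84. Without DMSO replicate 2 the median was 0.64 and without DMSO replicate 1 it was -0.63, so the 2 vehicle libraries lie on either side of Ctrl PIP. Cyc1 measured 147 and 161 CPM with Ctrl PIP and 87.1 and 151 CPM with DMSO, a log2 fold change of 0.37 (SE 0.29, adjusted p = 1.00). Ndufa6 measured 74.5 and 63.7 CPM with Ctrl PIP and 64.9 and 104 CPM with DMSO (log2 fold change -0.29, SE 0.32). The groups overlapped in both genes.

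The comparison with the least scatter between replicates was SGC-CBP30 against Ctrl PIP. The length gradient was split by group here, with rho of 0.52 and 0.47 in SGC-CBP30 libraries and -0.49 and -0.16 in Ctrl PIP libraries. Compound and gradient therefore cannot be told apart in this comparison. Both SGC-CBP30 libraries lay below both Ctrl PIP libraries for 77 of the 84 genes, and 30.2% of all genes did so. With the offsets the count was 54, and 28.2% of all genes. The summed CPM of SGC-CBP30 was 8514 ± 299, and that of Ctrl PIP 11213 ± 860 (SD, n = 2 each). The median log2 fold change was -0.46, against 0.01 over all genes, with medians of -0.47 in complex I, -0.39 in complex II, -0.56 in complex III, -0.45 in complex IV and -0.46 in ATP synthase. With the offsets the median was -0.20, against 0.03 over all genes, with -0.20 in complex I, -0.23 in complex II, -0.21 in complex III, -0.14 in complex IV and -0.23 in ATP synthase.

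In the fit of all 8 libraries, 0 of the 84 and 0% of all genes passed at an adjusted p of 0.05, and DESeq2 called 0 of the 84 and 31 genes in all. That fit shares 1 estimate of the spread, with a common coefficient of variation of 0.415. Fitted on their own 4 libraries, these 2 groups had a coefficient of variation of 0.154, against 0.363 to 0.543 in the other 5 comparisons. There edgeR called 36 of the 84 lower and 0 higher, while 8.51% of the 15660 genes tested were called lower and 7.27% higher. The 36 comprised 12 genes of complex I, 1 of complex II, 6 of complex III, 8 of complex IV and 9 of ATP synthase. With the offsets in that same fit, 8 of the 84 were called lower, and 6.45% of all genes. The count of 8 is not far from that background, and it is not read as a trait of the 84.

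**Figure D3:**
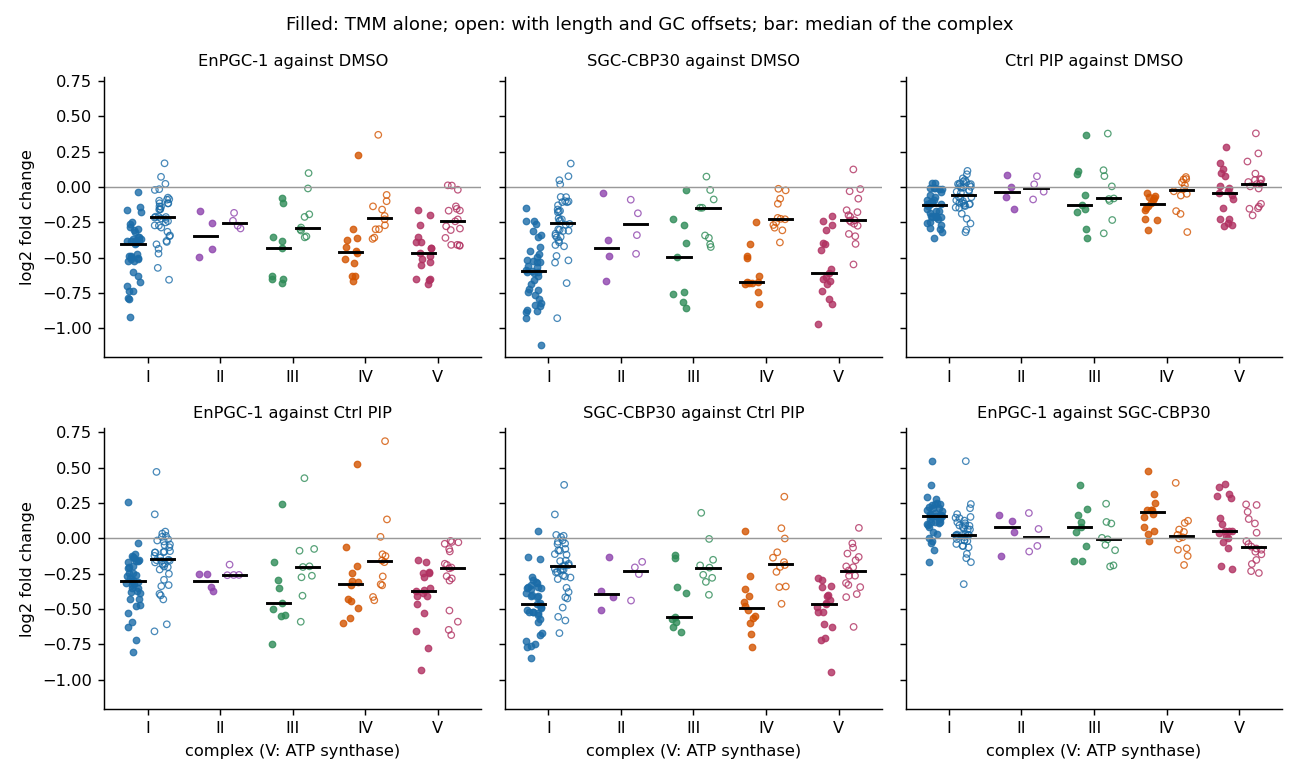
Log2 fold change (vertical axis) by complex (horizontal axis) in 6 comparisons, for the 80 genes above 1 CPM in every library; filled points are from TMM scaling alone, open points from the fit with length and GC offsets, and bars are medians. With the offsets the median of all 84 genes lay nearer to 0 in each comparison, and in SGC-CBP30 against Ctrl PIP most points of both kinds lie below 0.

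Atp5g1, 1 of the genes for the subunit c ring that turns as protons pass, led this comparison. It measured 52.5 and 59.2 CPM in SGC-CBP30 libraries and 106 and 110 CPM in Ctrl PIP libraries, with no overlap. The log2 fold change was -0.95 (95% interval -1.94 to 0.04, adjusted p = 0.871) in the fit of 8 libraries, and the adjusted p was 0.011 in the fit of 4 libraries and 0.023 there with the offsets. EnPGC-1 libraries, at 50.3 and 62.5 CPM, lay where the SGC-CBP30 libraries did, and DMSO libraries measured 50.1 and 127 CPM. The log2 difference of EnPGC-1 from Ctrl PIP was -0.93 (95% interval -1.92 to 0.05, adjusted p = 0.812), and that of EnPGC-1 from SGC-CBP30 was 0.01 (-0.97 to 0.99).

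The 8 genes called lower in the 4-library fit with the offsets were Atp5g1, Atp5g3, Cox5a, Ndufab1, Ndufa12, Ndufa5, Ndufs6 and Ndufb1, of which Ndufa5 and Ndufs6 are named because they passed. Ndufab1 is the mitochondrial acyl carrier protein, which serves both complex I and lipoic acid synthesis. It measured 37.0 and 42.5 CPM with SGC-CBP30 and 69.4 and 64.2 CPM with Ctrl PIP (log2 fold change -0.75, adjusted p = 0.014 in the 4-library fit and 0.018 there with the offsets). Cox5a measured 78.6 and 87.3 CPM with SGC-CBP30 and 148 and 134 CPM with Ctrl PIP, with adjusted p of 0.014 and 0.024 in the same fits. Ndufb1 has no length in the annotation used, so the offsets left it uncorrected.

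Cyc1 measured 92.5 and 112 CPM with SGC-CBP30 and 147 and 161 CPM with Ctrl PIP, again without overlap (log2 fold change -0.59, SE 0.29). Its adjusted p in edgeR's 4-library fit was 0.026, and 0.095 there with the offsets. Sdhb measured 95.5 and 105 CPM with SGC-CBP30 and 155 and 131 CPM with Ctrl PIP, with an adjusted p of 0.034 in the 4-library fit and 0.138 there with the offsets. The catalytic beta subunit Atp5b measured 882 and 997 CPM with SGC-CBP30 and 1268 and 1277 CPM with Ctrl PIP, and did not pass in the 4-library fit (adjusted p = 0.071).

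Some transcripts of these complexes differed little between SGC-CBP30 and Ctrl PIP or ran the other way. Sdha measured 296 and 300 CPM with SGC-CBP30 and 309 and 343 CPM with Ctrl PIP, a log2 fold change of -0.13 (95% interval -0.63 to 0.37). Uqcrc2 measured 157 and 166 CPM with SGC-CBP30 and 179 and 170 CPM with Ctrl PIP (log2 fold change -0.11, 95% interval -0.57 to 0.34). Cox6b2 was higher in both SGC-CBP30 libraries, at 1.44 and 1.79 CPM, than in both Ctrl PIP libraries, at 0.880 and 1.02 CPM, but its difference of 0.76 (SE 0.42) passed neither the 8-library fit (adjusted p = 0.871) nor the 4-library fit (adjusted p = 0.15) of edgeR.

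**Figure D4:**
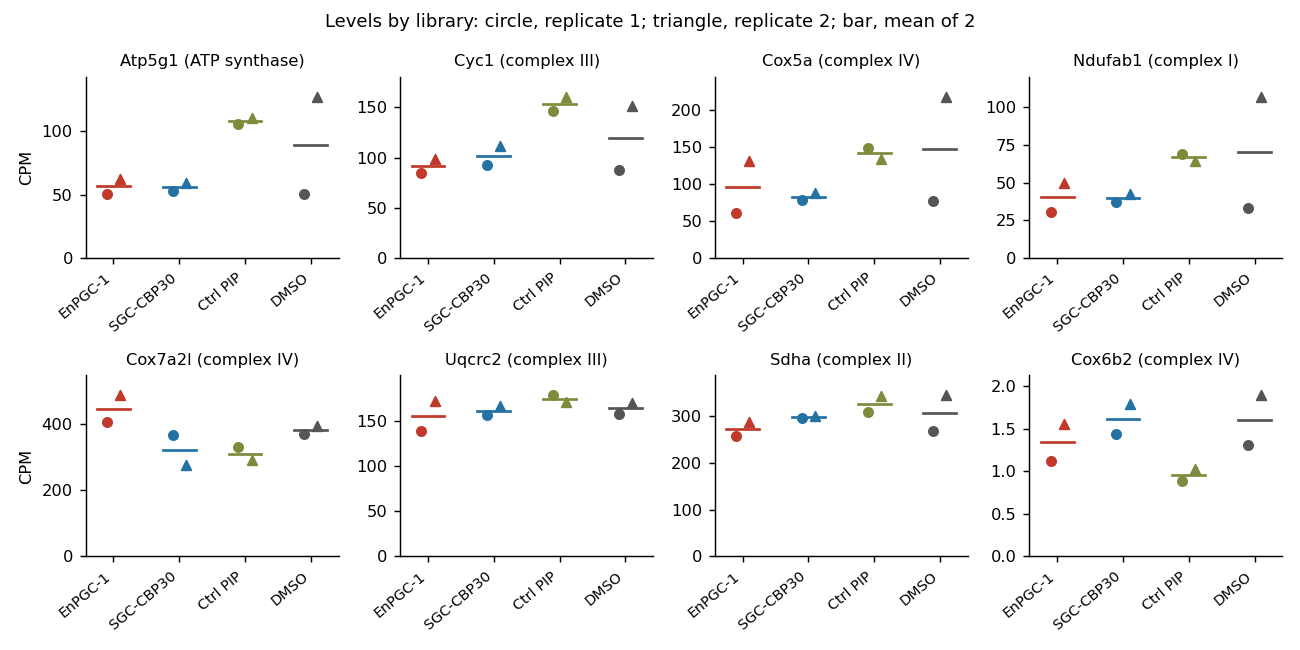
CPM (vertical axis, from 0) of 8 genes in each group (horizontal axis); circles are replicate 1, triangles replicate 2 and bars the mean of both. Atp5g1, Cyc1, Cox5a and Ndufab1 are lower in both SGC-CBP30 libraries than in both Ctrl PIP libraries, the DMSO libraries lie far apart in these 4 genes, Cox7a2l is highest with EnPGC-1, and Uqcrc2 and Sdha vary little.

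In EnPGC-1 against Ctrl PIP, 79 of the 84 transcripts had a lower mean, with a median log2 fold change of -0.32, against 0.05 over all genes, and -0.17 with the offsets (72 below 0). Both EnPGC-1 libraries lay below both Ctrl PIP libraries for 22 of the 84 genes, and 21.7% of all genes did so, which is near that background of all genes; with the offsets the count was 37, and 21.6% of all genes. edgeR called 0 of the 84 and 0% of all genes, and DESeq2 0 of the 84 and 37 genes in all. Cyc1 measured 84.2 and 98.6 CPM with EnPGC-1 and 147 and 161 CPM with Ctrl PIP, without overlap. Its log2 fold change was -0.75 (95% interval -1.45 to -0.05, adjusted p = 0.812 by edgeR). Of the 84 genes it was the 1 below an unadjusted 0.05 in edgeR's test. Some of 84 genes can fall below 0.05 without a group difference, so this count is not read as a trait of the 84. The median without EnPGC-1 replicate 2 was -0.82, and without EnPGC-1 replicate 1 it was -0.0037.

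In EnPGC-1 against SGC-CBP30 the median was 0.13, against 0.02 over all genes, and 0.02 with the offsets. Both EnPGC-1 libraries lay above both SGC-CBP30 libraries for 2 of the 84 genes, Ndufb4 and Cox7a2l, and 13.2% of all genes did so. Uqcrh measured 153 and 265 CPM with EnPGC-1 and 177 and 144 CPM with SGC-CBP30 (log2 fold change 0.38, SE 0.39), and Atp5mpl, a small subunit of ATP synthase, 39.9 and 84.6 CPM with EnPGC-1 and 43.8 and 51.5 CPM with SGC-CBP30 (0.39, SE 0.55). In both genes the SGC-CBP30 libraries overlapped those of EnPGC-1. Ndufb4 measured 19.4 and 23.8 CPM with EnPGC-1 and 18.5 and 16.7 CPM with SGC-CBP30 (log2 fold change 0.29). edgeR called 0 of the 84 and 0% of all genes in this comparison, and DESeq2 called 0 of the 84 and 16 genes in all. Intervals were wide: that of Ndufa12, with a log2 difference of -0.08, ran from -1.17 to 1.01. Over all 4 groups at once, edgeR called 0 of the 84 and 0 genes in all, with 0 of the 84 and 413 of the 16750 genes at an unadjusted p under 0.05.

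The 3 subunit c genes did not keep a fixed ratio. Atp5g2 made up 58.2% and 59.4% of their summed TPM with EnPGC-1, 59.4% and 56.9% with SGC-CBP30, 50.2% and 48.9% with Ctrl PIP, and 55.8% and 49.1% with DMSO. The EnPGC-1 and SGC-CBP30 libraries lay above all 4 others. Atp5g3 ran lower in those libraries, at 28.1% and 31.3% with EnPGC-1 and 30.1% and 32.4% with SGC-CBP30, against 36.3% and 35.7% with Ctrl PIP and 32.8% and 37.3% with DMSO. Atp5g1 held 13.7% and 9.32% with EnPGC-1, 10.5% and 10.8% with SGC-CBP30, 13.5% and 15.4% with Ctrl PIP, and 11.5% and 13.6% with DMSO. The transcripts used for these shares are 691 (Atp5g1), 441 (Atp5g2) and 714 (Atp5g3) bases long. The part of length in these shares was not tested.

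**Figure D5:**
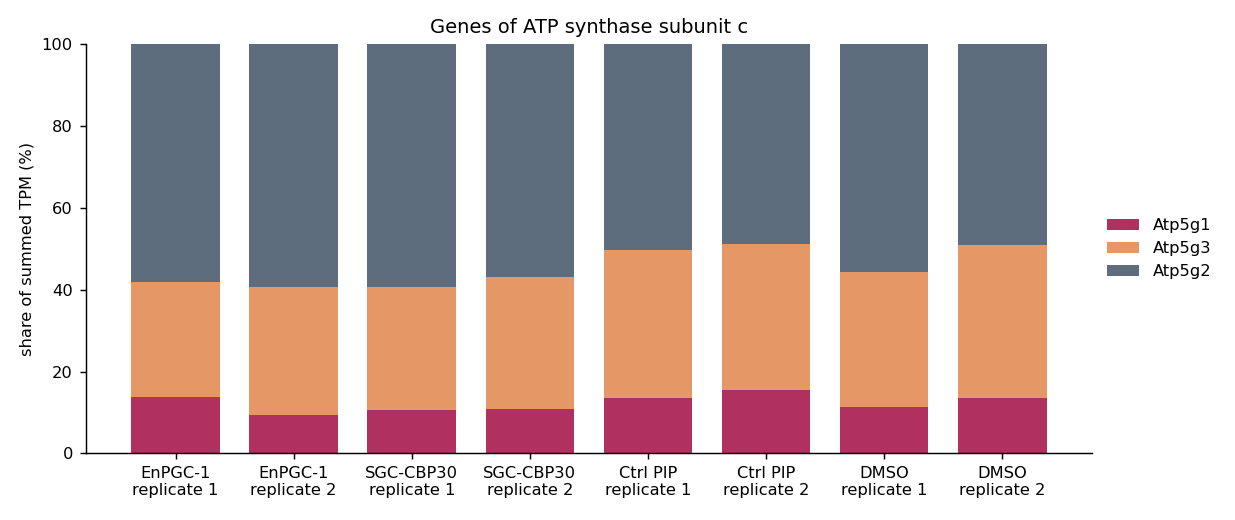
Share of the summed TPM of Atp5g1, Atp5g3 and Atp5g2 (vertical axis, percent) in each library (horizontal axis). Atp5g2 takes 56.9% to 59.4% in the EnPGC-1 and SGC-CBP30 libraries and 48.9% to 55.8% in the Ctrl PIP and DMSO libraries.

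Other genes of the pathway were taken from lists chosen by role. In SGC-CBP30 against Ctrl PIP, 46 of 51 assembly factors of the complexes had a lower mean (median log2 fold change -0.32), and 10 passed as lower in the 4-library fit of edgeR, with 0 higher, where 8.51% of all genes passed as lower. With the offsets 5 of the 51 passed as lower, where 6.45% of all genes did. Of 8 mobile carriers and enzymes of coenzyme Q synthesis, 7 had a lower mean (median -0.45). In the 4-library fit without the offsets 3 passed as lower, where 8.51% of all genes did: Cycs, Coq2 and Coq7 (named because they passed). Coq7 is a hydroxylase of coenzyme Q synthesis. Cytochrome c (Cycs), which carries electrons between complexes III and IV, measured 53.9 and 60.4 CPM with SGC-CBP30 and 105 and 95.7 CPM with Ctrl PIP, without overlap. The 13 subunits encoded in mitochondrial DNA had a median of 0.05, with 7 above 0, and none passed in the 4-library fit without offsets. With them ND4L and ATP8 passed as higher (adjusted p = 0.028 and 0.024 by edgeR, named because they passed), where 4.74% of all genes did. The calls of ND4L and ATP8 thus rest on the offsets, and the part of the length term in them was not tested. The inhibitor of ATP synthase, Atpif1, measured 40.2 and 46.1 CPM with SGC-CBP30 and 61.3 and 49.4 CPM with Ctrl PIP.

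The summed CPM of the nuclear subunits, divided by that of the 13 mitochondrially encoded ones, was 0.253 and 0.421 with EnPGC-1, 0.355 and 0.286 with SGC-CBP30, 0.453 and 0.410 with Ctrl PIP, and 0.308 and 0.689 with DMSO. Both SGC-CBP30 values lay below both Ctrl PIP values, and the DMSO values lay on either side of both Ctrl PIP values. Mitochondrial sums ranged from 22582 to 30488 CPM and nuclear sums from 6678 to 15548 CPM. Both sides entered the ratio. From SGC-CBP30 replicate 1 to replicate 2 the nuclear sum rose from 8302 to 8725 CPM. The mitochondrial sum rose from 23357 to 30488 CPM, and the ratio fell.

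Among 11 regulators, 0 passed edgeR's adjusted test in any of the 6 comparisons of the 8-library fit. In the 4-library fit of SGC-CBP30 against Ctrl PIP, Myc and Pprc1 passed as lower by edgeR (adjusted p = 0.012 for each). Hif1a, a factor of the response to low oxygen, passed as higher (adjusted p = 0.013 by edgeR). All 3 are named because they passed. In that fit 8.51% of all genes passed as lower and 7.27% as higher. It had no offsets for length and GC content, and compound and length gradient cannot be told apart in this comparison. Hif1a measured 340.5 and 357 CPM with SGC-CBP30 and 191 and 157 CPM with Ctrl PIP. It measured 291 and 244 CPM with EnPGC-1 and 382 and 141 CPM with DMSO. Ppargc1a had 74 and 10 counts with EnPGC-1, 0 and 3 with SGC-CBP30, 0 and 0 with Ctrl PIP, and 14 and 0 with DMSO. The higher EnPGC-1 count came from replicate 1, the library lowest for most respiratory chain genes. Myc, a transcription factor that drives growth and many mitochondrial genes in activated T cells, measured 71.1 and 62.9 CPM with SGC-CBP30 and 153 and 124 CPM with Ctrl PIP (log2 fold change -1.05, SE 0.24, adjusted p = 0.871 by edgeR in the 8-library fit). Pprc1, a coactivator related to PGC-1alpha, measured 36.3 and 33.6 CPM with SGC-CBP30 and 63.6 and 70.0 CPM with Ctrl PIP, a log2 fold change of -0.93 (SE 0.33). With EnPGC-1, Myc measured 97.8 and 85.9 CPM and Pprc1 60.4 and 29.9 CPM. With DMSO, Myc measured 147 and 208 CPM and Pprc1 56.9 and 67.0 CPM.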

How the data were processed

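RNA-seq gene counts of 8 libraries (4 groups of 2) were analysed as the authors deposited them; the authors also deposited regularized log2 (rlog) values, whose header names stand 1 column left of the values. Per the submitters' processing notes, HISAT2, StringTie and DESeq2 were used with mm10; their versions, the counter, its annotation and its strand setting were not given in the sources used here. No column of another sample was present (0).

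Members came from the rlog table, and their levels from the counts. Members and lists were chosen with earlier results of these data known. Genes passing filterByExpr (16750, all 84 members included) were scaled by TMM and fitted over all 8 libraries (4 residual degrees of freedom) with edgeR 4.0.16 in R 4.3.3 by the quasi-likelihood test, two-sided, with Benjamini-Hochberg adjustment over all genes tested and a threshold of 0.05. Fold changes are log2, intervals 95%. CPM used TMM-scaled library sizes, and log2 CPM a prior count of 2. TPM and the offsets used transcript lengths from GENCODE mouse release 21 (82 of 84 members, 92.1% of genes tested). The offsets were smooth trends in length and GC content per library (mgcv 1.9.3). Promoters came from RefSeq tables, to which 99.8% of the identifiers matched.

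Alternatives were DESeq2 1.42.0, its size factors in edgeR, no filter on low counts, the offsets, a replicate block, the 4 libraries of a comparison alone, limma 3.58.1 on rlog values, and libraries left out. The 4-library fit with offsets was chosen after seeing the data. Genes are named if they have the smallest p of their complex, or the highest or lowest fold change, in a comparison, if edgeR or DESeq2 called them, or if their level per length is the highest or lowest of a complex, beside a set of subunits picked by role. Some marker genes are not reported here, and the sums of their lists leave them out.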

Additional observations from a re-analysis of the deposited data

How the results depend on the processing

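In the fit of all 8 libraries, 0 of the 84 genes and 0 genes in all were called in each of the 6 comparisons and across the 4 groups, and leaving out any 1 library gave 0 to 0 calls. DESeq2 called 18 genes in EnPGC-1 against DMSO, 2 in Ctrl PIP against DMSO, 62 in SGC-CBP30 against DMSO, 37 in EnPGC-1 against Ctrl PIP, 31 in SGC-CBP30 against Ctrl PIP, 16 in EnPGC-1 against SGC-CBP30 and 90 across the groups. In SGC-CBP30 against Ctrl PIP, the 4-library fit called 36 of the 84 and 2470 genes in all, and 8 and 1753 with the offsets; fewer libraries entered the estimate of the spread.

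Without replicate 1 of DMSO and of EnPGC-1 (the lone library of each is then assumed to vary like the other groups), calls among the 84 were 14 in EnPGC-1 against DMSO, 78 in SGC-CBP30 against DMSO, 31 in SGC-CBP30 against Ctrl PIP and 67 across the groups. Calls in all were 1095 in EnPGC-1 against DMSO, 1 in Ctrl PIP against DMSO, 6314 in SGC-CBP30 against DMSO, 41 in EnPGC-1 against Ctrl PIP, 2256 in SGC-CBP30 against Ctrl PIP, 1 in EnPGC-1 against SGC-CBP30 and 4379 across the groups. Without replicate 2 of both, calls among the 84 were 47 in Ctrl PIP against DMSO, 68 in EnPGC-1 against Ctrl PIP, 25 in SGC-CBP30 against Ctrl PIP, 1 in EnPGC-1 against SGC-CBP30 and 57 across the groups, and calls in all 2365, 5183, 1866, 883 and 3816 in the same order, with 15 in SGC-CBP30 against DMSO. Medians of the 84 were then -0.14 in EnPGC-1 against DMSO, 0.65 in Ctrl PIP against DMSO and 0.19 in SGC-CBP30 against DMSO. They were -0.82 in EnPGC-1 against Ctrl PIP, -0.47 in SGC-CBP30 against Ctrl PIP and -0.34 in EnPGC-1 against SGC-CBP30. The medians of Ctrl PIP and of SGC-CBP30 against DMSO thus changed sign with the DMSO library kept. That of EnPGC-1 against SGC-CBP30 changed sign with the EnPGC-1 library kept. The cause was not tested.

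Leaving out 1 library at a time, the median ranged from -0.92 to 0.31 in EnPGC-1 against DMSO, -0.63 to 0.64 in Ctrl PIP against DMSO, -1.10 to 0.19 in SGC-CBP30 against DMSO, -0.82 to -0.0037 in EnPGC-1 against Ctrl PIP, -0.57 to -0.35 in SGC-CBP30 against Ctrl PIP and -0.35 to 0.48 in EnPGC-1 against SGC-CBP30. The median of SGC-CBP30 against Ctrl PIP was -0.20 with the offsets, -0.20 with them in the 4-library fit, -0.21 with them and the replicate block, and -0.27 by limma on rlog values.

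With the replicate block, 0 of the 84 and 0 genes were called in each comparison, and the median was -0.42 in EnPGC-1 against DMSO, 0.019 in Ctrl PIP against DMSO (38 of 84 below 0, against 72 without the block), -0.49 in SGC-CBP30 against DMSO, -0.43 in EnPGC-1 against Ctrl PIP, -0.50 in SGC-CBP30 against Ctrl PIP and 0.076 in EnPGC-1 against SGC-CBP30. The labels do not say that the numbers pair the samples, and not every pair of groups deviates together. Same-numbered deviations correlated at 0.67 between EnPGC-1 and DMSO, 0.23 between SGC-CBP30 and DMSO, 0.23 between EnPGC-1 and SGC-CBP30, -0.25 between Ctrl PIP and DMSO, -0.23 between EnPGC-1 and Ctrl PIP and -0.039 between SGC-CBP30 and Ctrl PIP.

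Signs of single log2 fold changes turned without replicate 2 of DMSO and of EnPGC-1 for Atp5g1 (0.013) in EnPGC-1 against DMSO, Ndufa6 (0.099) in Ctrl PIP against DMSO, Sdhb (0.030), Uqcrq (0.10), Cox5a (0.11), Cox6a2 (1.06) and Atp5md (0.14) in SGC-CBP30 against DMSO, Cox7a1 (-6.07) in EnPGC-1 against Ctrl PIP and Ndufb1 (-0.085), Uqcrh (-0.070) and Atp5mpl (-0.25) in EnPGC-1 against SGC-CBP30. Without replicate 1 of both they turned for Sdha (-0.084) and Atp5g1 (-0.24) in Ctrl PIP against DMSO and Cox6b2 (-0.23) in SGC-CBP30 against DMSO. Fitted values of Cox6a2 and Cox7a1 depend on the prior count, since some libraries are at 0 counts. With 1 library left out at a time, values crossed 0 for Ndufa12 (-1.46 to 0.0059), Sdhb (-0.95 to 0.19), Uqcr10 (-1.198 to 0.19) and Atp5g1 (-1.15 to 0.17) in EnPGC-1 against DMSO. In Ctrl PIP against DMSO they did so for Ndufa6 (-0.58 to 0.092), Sdha (-0.067 to 0.29) and Atp5g1 (-0.22 to 1.10). In SGC-CBP30 against DMSO they did so for Sdhb (-1.11 to 0.028), Uqcrq (-1.36 to 0.10), Cox5a (-1.38 to 0.10), Cox6a2 (-6.80 to 1.05), Cox6b2 (-0.22 to 0.30) and Atp5md (-1.58 to 0.14). In EnPGC-1 against Ctrl PIP they did so for Cox7a1 (-6.08 to 7.23). In EnPGC-1 against SGC-CBP30 they did so for Ndufb1 (-0.092 to 0.99), Uqcrh (-0.077 to 0.73) and Atp5mpl (-0.26 to 0.83).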
